A study of Mus musculus with 4 samples.

Results

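The genes described here are 52 genes of the Wnt signalling pathway, measured in Met-low and Met-high populations of B16-F10, a mouse melanoma cell line that metastasises to the lung. They were chosen by name, from the ligands to the transcription factors, and not by a rule on their measured values. Earlier results of these data were known when they were chosen. Each was found on the array by matching the accession of a probe to its symbol in mouse RefSeq. All 52 had at least 1 probe, out of 20832 genes named in this way. Where a gene had several probes, the brightest over the 4 arrays was used.

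In the study, B16-F10 cells were stained for cell-surface Met, the receptor of hepatocyte growth factor, and sorted by flow cytometry into a Met-low and a Met-high population. Both populations were cultured separately for 3 days in the same serum-containing medium, with no drug or genetic change, and total RNA of each was hybridised to Agilent one-colour mouse arrays. Each population was hybridised to 2 arrays, and the study describes the cells on them as prepared independently. Each population is a sorted share of 1 line and not a separate clone, and the study describes Met-low cells as able to turn into Met-high cells in culture.

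Wnt proteins are secreted ligands that bind frizzled receptors together with the co-receptors Lrp5 and Lrp6. Without ligand, a destruction complex built on Axin and Apc phosphorylates β-catenin and marks it for degradation. With ligand, dishevelled proteins recruit Axin to the membrane, β-catenin accumulates, and it acts in the nucleus with factors of the TCF/LEF family. In the melanocyte lineage, Wnt signals direct neural crest cells towards the melanocyte fate, and the melanocyte regulator *Mitf* is a known target of β-catenin with LEF1.

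Values are given as log2 signal, that is, the log2 of the background-corrected Cy3 intensity minus the 75th percentile of the same array. A value of 0 thus lies at the 75th percentile of the array. A log2 ratio is the mean log2 signal of Met-high minus that of Met-low cells, so positive ratios are higher in Met-high cells. Levels of different probes cannot be compared with each other, since each probe binds its target with its own efficiency. A probe was taken as measured on an array where the scanner software marked it well above background. A gene was tested when it was measured on both arrays of at least 1 population, and called at an adjusted p under 0.05 by limma with Benjamini-Hochberg adjustment over all 11957 genes tested. The study itself selected genes by a 2-fold difference without a test, and that count is given beside the calls.

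Promoter sequences of *Tcf7*, *Axin2* and *Wnt4*, which are among the genes called or past 2-fold, are shown first, and that of *Wnt5b* as a window that holds a TCF/LEF motif. Promoters of *Fzd6* and *Apc* were not analysed here. The promoters used were 43 of 34 of the 52 genes, from RefSeq on GRCm38.p6, each from 250 bases before to 50 bases after a transcription start. They were searched on both strands for the TCF/LEF core heptamers. These were CTTTGAA, then CTTTGAT with the last base changed, and further CTTTGTA together with the related CTTTGTT. All of them share their first bases. They have the same length and differ in their last bases, so a given position holds at most 1 of them on a strand. A heptamer was found in 6 of 43 promoters (13.95%), and in 16.88% of all 32851 promoters of the same length. The median GC content of the 43 promoters was 66.67%, compared with 52.67% for all promoters. Capitals mark a heptamer.
Tcf7, upstream start (chr11:52282965-52283264, minus strand): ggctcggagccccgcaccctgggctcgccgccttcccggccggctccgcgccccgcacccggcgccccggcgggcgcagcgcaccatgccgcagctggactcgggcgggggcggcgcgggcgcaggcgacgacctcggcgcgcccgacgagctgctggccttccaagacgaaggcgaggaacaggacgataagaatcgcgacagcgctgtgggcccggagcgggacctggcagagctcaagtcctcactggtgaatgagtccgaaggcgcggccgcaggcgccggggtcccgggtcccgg
Tcf7, downstream start (chr11:52282546-52282845, minus strand): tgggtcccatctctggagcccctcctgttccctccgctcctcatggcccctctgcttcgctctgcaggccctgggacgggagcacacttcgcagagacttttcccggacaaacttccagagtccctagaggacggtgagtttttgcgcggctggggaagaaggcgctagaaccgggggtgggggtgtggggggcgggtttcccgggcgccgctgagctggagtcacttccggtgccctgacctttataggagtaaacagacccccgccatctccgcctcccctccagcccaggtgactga
Axin2 (chr11:108920099-108920398, plus strand): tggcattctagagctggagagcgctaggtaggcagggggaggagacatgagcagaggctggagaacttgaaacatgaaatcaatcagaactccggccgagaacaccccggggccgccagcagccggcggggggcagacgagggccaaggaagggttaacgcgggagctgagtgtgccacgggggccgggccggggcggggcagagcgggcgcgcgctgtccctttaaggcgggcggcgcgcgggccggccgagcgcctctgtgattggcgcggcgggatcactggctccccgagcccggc
Wnt4 (chr4:137277385-137277684, plus strand): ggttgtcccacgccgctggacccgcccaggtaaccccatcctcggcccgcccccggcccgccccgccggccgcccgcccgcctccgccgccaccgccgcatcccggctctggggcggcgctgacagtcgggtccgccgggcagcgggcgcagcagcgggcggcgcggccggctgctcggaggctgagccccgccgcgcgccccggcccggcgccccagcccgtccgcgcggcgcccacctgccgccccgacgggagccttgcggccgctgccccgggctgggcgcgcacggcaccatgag
Wnt5b, most downstream of 3 starts (chr6:119449337-119449636, minus strand): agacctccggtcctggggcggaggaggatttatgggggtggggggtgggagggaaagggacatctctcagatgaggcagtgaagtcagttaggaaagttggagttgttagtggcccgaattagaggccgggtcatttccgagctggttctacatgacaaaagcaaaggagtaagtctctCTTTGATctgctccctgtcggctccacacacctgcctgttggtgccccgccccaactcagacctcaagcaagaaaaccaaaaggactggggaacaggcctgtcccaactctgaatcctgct
No heptamer was found in the windows of *Tcf7*, *Axin2* and *Wnt4*. The upstream window of *Tcf7* holds an ATG before its stated start. Codons run from that ATG to the end of the window without a stop codon, so much of the window may be coding sequence. Sequence before this window was not searched, so the result for *Tcf7* covers only the windows shown. The window of *Wnt5b* shown holds CTTTGAT at position -71 relative to the start, and the windows at its other starts hold none. The other promoters with a heptamer were those of *Dkk1*, *Fzd7*, *Tcf7l2*, *Wnt11* and *Wnt3*. For *Tcf7l2* and *Wnt11*, a window at another start held none. These matches describe letters in a short window, and binding was not measured here.

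Of the 52 genes, 33 were tested, and 30 of these were measured on all 4 arrays. Among the 33, 3 were called, namely *Tcf7*, *Fzd6* and *Axin2*, all with more signal in Met-high cells. None was higher in Met-low cells at that threshold by limma. At an unadjusted p under 0.05, 7 of the 33 had a positive and 2 a negative ratio, beside 1713 and 1421 of all 11957 genes. Of all genes tested, 1.93% were called higher in Met-high cells and 3.8% higher in Met-low cells. By the 2-fold rule, *Tcf7* and *Fzd6* were higher in Met-high cells and *Wnt4* and *Apc* were higher in Met-low cells, against 2.43% and 5.29% of all genes, where the ratio of *Tcf7* is against a signal that was not well above background. The values of the populations did not overlap in 14 genes that were higher in Met-high cells and in 5 that were higher in Met-low cells, compared with 35.7% and 22.6% of all genes. The median log2 ratio of the 33 was 0.21, beside 0.10 for all genes tested, and the median size of the ratio, whatever its sign, was 0.41 beside 0.30. *Axin2* and *Tcf7* entered the test only because they were measured on both Met-high arrays, as did 433 genes in all, and *Bcl9* only through Met-low cells. For such genes a difference is partly built in. Among the 30 measured on all 4 arrays, 1 gene was called and 3 passed 2-fold. Of all 11223 genes measured on 4 arrays, 512 were called and 600 passed 2-fold.

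**Figure D1:**
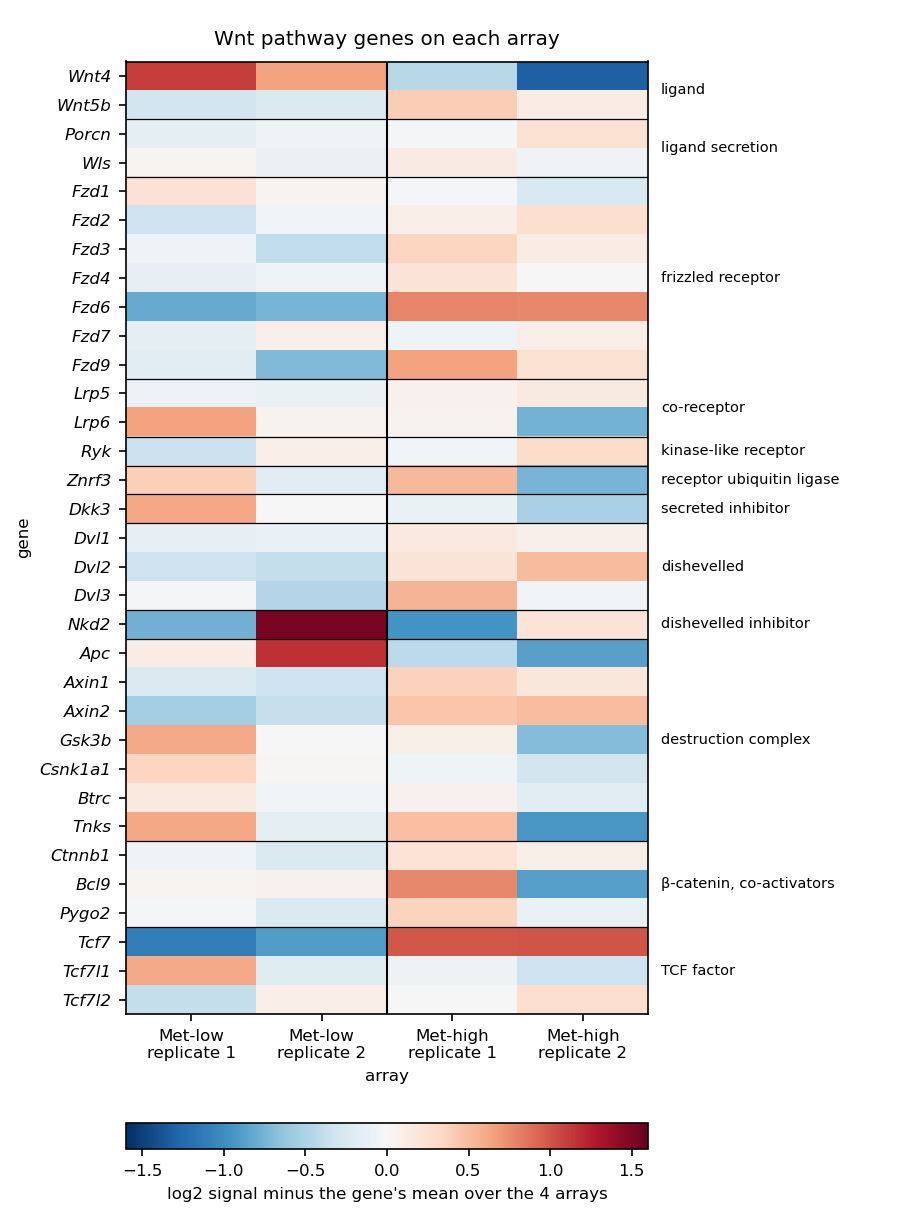
Log2 signal of the 33 tested Wnt pathway genes on each of the 4 arrays, as the deviation from the mean of the gene over the arrays (colour, log2 units), with genes in rows grouped by role. *Tcf7*, *Fzd6* and *Axin2* are low on both Met-low arrays and high on both Met-high arrays, *Wnt4* shows the opposite, and *Znrf3*, *Tnks* and *Bcl9* differ more between the Met-high arrays than between the populations.

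Over all genes, 231 were called higher in Met-high and 454 higher in Met-low cells. With the 75th percentile taken over detected probes only, these counts were 146 and 613, and the median ratio of all genes moved from 0.10 to -0.05 while that of the tested Wnt genes moved from 0.21 to 0.06. *Met*, by whose protein the cells were sorted, had log2 signals of -0.26 and -0.89 in Met-low and 1.04 and -0.43 in Met-high cells, a ratio of 0.87 ± 0.51 (SE, n = 2 each) with an adjusted p of 0.333. Without Met-high replicate 2 its ratio was 1.61 with an adjusted p of 0.0196, and without Met-high replicate 1 it was 0.14. The 7 melanocyte markers were measured on all 4 arrays, with a summed linear signal of 1390 to 1690 in Met-low and 1490 to 1700 in Met-high cells. Of the markers of other cells, each of 5 of keratinocytes was below the limit on at least 1 array, 1 of 6 of fibroblasts was measured on all arrays (*Col1a2*, lower in Met-high cells, summed list signal 0.628 to 0.685 and 0.318 to 0.361), and 3 of 5 of leukocytes and 2 of 5 of endothelium were, with overlapping sums for leukocytes and sums of 5.6 to 6.41 and 6.89 to 8.58 for endothelium. The part of these in the differences below was not tested.

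The ligands were mostly below detection. Of the 9 Wnt genes in the set, only *Wnt4* and *Wnt5b* were measured on both arrays of a population. *Wnt3*, *Wnt5a*, *Wnt7a*, *Wnt10a*, *Wnt10b* and *Wnt11* were well above background on no array. *Wnt6* was so on replicate 2 of each population only, and its log2 signals lay between -4.58 and -4.36. No ratio is given for these 7 genes.

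*Wnt4*, a ligand that acts through both β-catenin and other routes depending on the receptor, had more signal on both Met-low arrays than on either Met-high array. Its log2 signal was -1.25 and -1.72 in Met-low cells and -2.80 and -3.66 in Met-high cells. The populations did not overlap, although the replicates of Met-high cells lay 0.61 (SD, n = 2) around their mean. The log2 ratio was -1.75 ± 0.34 (SE), a 3.35-fold difference, with an adjusted p of 0.0517 by limma, just outside the threshold. A second probe of *Wnt4* was measured on both Met-low arrays and on neither Met-high array. Its signal was 2.23-fold higher in Met-low cells, against Met-high signals that were not well above background. Over the alternative settings other than the block by replicate number, the ratio of *Wnt4* ranged from -2.18 to -1.25 and its adjusted p from 0.0030 to 0.200, and it was called in 7 of 12.

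*Wnt5b*, a ligand of β-catenin-independent signalling, had log2 signals of -2.56 and -2.50 in Met-low and -1.87 and -2.15 in Met-high cells. The ratio was 0.52 ± 0.17 (SE) with an adjusted p of 0.147, and it was called in none of the 12 alternatives. Of these ligands neither passed the test, and *Wnt4* passed 2-fold.

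The genes needed to release ligands differed little. *Porcn* encodes the enzyme that attaches a lipid to Wnt proteins, and its ratio was 0.21 ± 0.17 (SE). *Wls*, whose product carries Wnt proteins to the cell surface, had log2 signals of 2.21 and 2.06 in Met-low and 2.30 and 2.11 in Met-high cells. Its ratio of 0.07 changed sign under quantile normalization (-0.06) and with the percentile over detected probes (-0.07).

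Among the receptors, 7 of 9 frizzled genes were tested. *Fzd6*, a frizzled receptor known for planar cell polarity and hair patterning, had the smallest p of the genes of the set measured on every array. Its log2 signal was -2.59 and -2.53 in Met-low cells and -1.01 and -1.01 in Met-high cells. The replicates of each population lay within 0.05 (SD) of their mean, and the populations were far apart. The log2 ratio was 1.55 ± 0.15 (SE), a 2.93-fold difference, with an adjusted p of 0.0107. It had 1 probe on the array. The ratio stayed between 1.27 and 1.65 over 12 alternatives, and the call was made in 11, the exception being the test over all probes, dim ones included (adjusted p = 0.0886).

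*Fzd9* was next among the receptors. Its log2 signals were 0.09 and -0.43 in Met-low and 0.91 and 0.51 in Met-high cells, which did not overlap. The ratio was 0.88 ± 0.25 (SE) with an adjusted p of 0.112. The remaining frizzled genes had smaller ratios, namely 0.46 for *Fzd3*, 0.38 for *Fzd2*, 0.21 for *Fzd4*, 0.05 for *Fzd7* and -0.28 for *Fzd1*, with adjusted p from 0.212 to 0.892. Thus the mean of 6 of 7 frizzled genes was higher in Met-high cells, as it was in 7118 of all 11957 genes, but the sign of *Fzd7* turned with normexp (-0.01) and with the percentile over detected probes (-0.10), and that of *Fzd2* turned when it was averaged with its dim second probe, measured on no array (-0.07). *Fzd8* was well above background on no array, and *Fzd5* was so only by a second probe on Met-high replicate 1.

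The co-receptors of canonical signalling gave ratios of opposite sign. *Lrp5* had log2 signals of 0.42 and 0.41 in Met-low and 0.58 and 0.66 in Met-high cells, a ratio of 0.21 with an adjusted p of 0.433. *Lrp6* had 2.48 and 1.90 in Met-low and 1.90 and 1.08 in Met-high cells, a ratio of -0.70 ± 0.34 (SE) with an adjusted p of 0.266. The replicates of *Lrp6* were spread so widely that the populations met, and a second probe gave -0.63. *Ryk*, a kinase-like Wnt receptor, had a ratio of 0.25 with overlapping values. The tyrosine kinase-like receptors *Ror1* and *Ror2* were well above background on no array.

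The regulators of receptor abundance were only partly measured. *Lgr5*, a receptor of R-spondins, and *Rnf43*, a ubiquitin ligase that removes frizzled receptors from the surface, were well above background on no array, and *Lgr4* was so on Met-high replicate 2 only. *Znrf3*, the paralog of *Rnf43*, had log2 signals of -3.46 and -4.01 in Met-low and -3.33 and -4.59 in Met-high cells, and its ratio of -0.22 was smaller than the spread between replicates.

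Of the secreted inhibitors, *Sfrp1*, *Sfrp2*, *Dkk1* and *Wif1* were well above background on no array. *Dkk3*, a divergent member of the Dickkopf family, was measured on every array, with log2 signals of 3.42 and 2.81 in Met-low and 2.69 and 2.27 in Met-high cells. The populations did not overlap, but the replicates of Met-low cells were nearly as far apart as the population means. The ratio was -0.63 ± 0.27 (SE) with an adjusted p of 0.219.

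**Figure D2:**
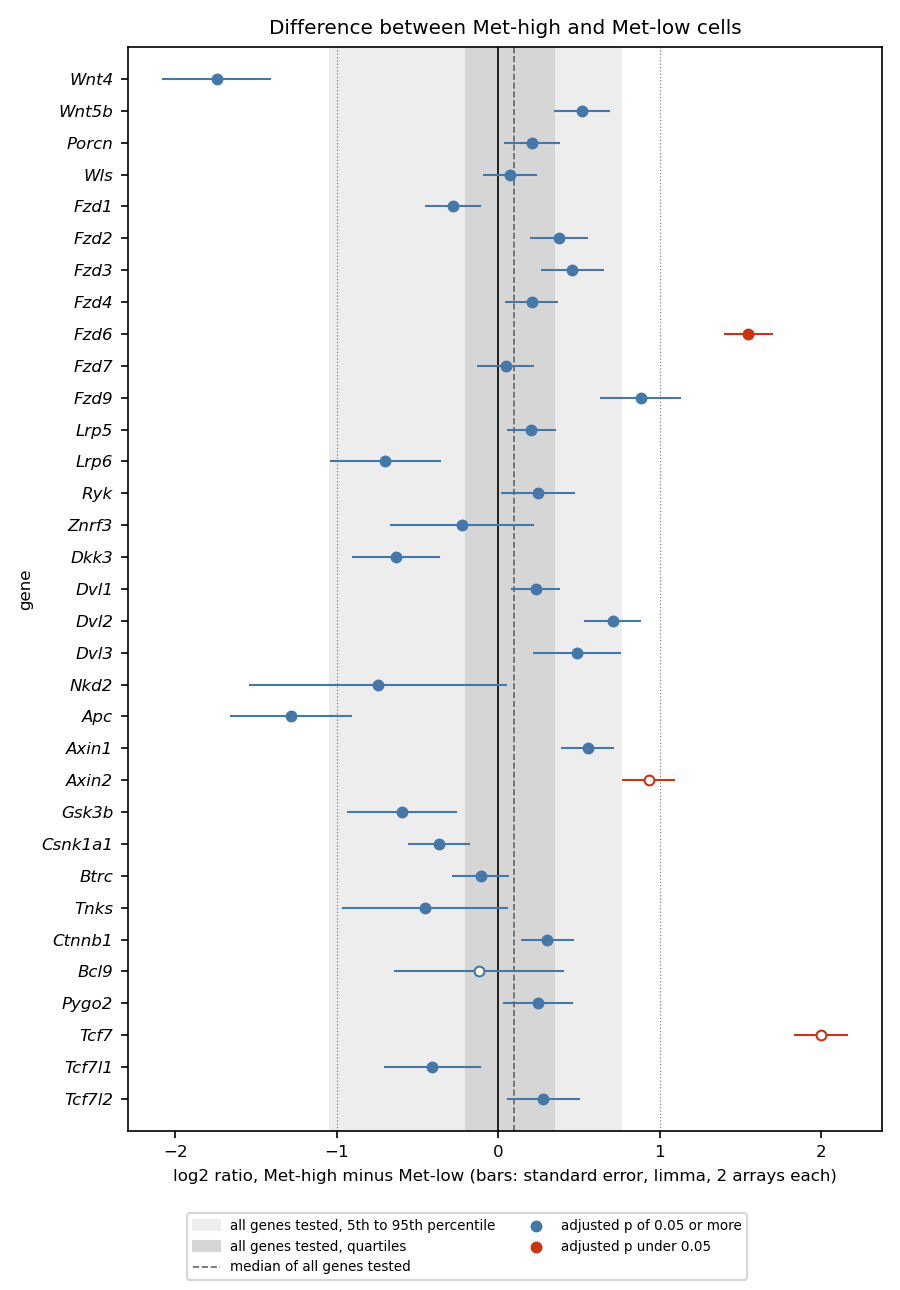
Log2 ratio of each tested Wnt pathway gene (points, Met-high minus Met-low) with its standard error from limma (bars, 2 arrays each), over the range of all 11957 genes tested (grey bands), with open points for genes not measured on every array and dotted lines at 2-fold. *Tcf7*, *Fzd6* and *Axin2* are the genes called at an adjusted p under 0.05, and *Wnt4* at -1.75 and *Apc* at -1.28 lie below the 5th percentile of all genes.

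All 3 dishevelled genes, whose products pass the signal from the receptor to the destruction complex, had a positive ratio, and none was called. No alternative turned the sign of any of them. *Dvl2* had log2 signals of 0.26 and 0.21 in Met-low and 0.80 and 1.1 in Met-high cells. Its ratio was 0.71 ± 0.18 (SE) with an adjusted p of 0.0857. *Dvl3* had 3.41 and 2.96 in Met-low and 3.97 and 3.38 in Met-high cells, with a ratio of 0.49 and overlapping values. *Dvl1* had a ratio of 0.23 with replicates close together, and its adjusted p was 0.387. Of the naked cuticle genes, whose products bind dishevelled and restrain it, *Nkd1* was well above background on no array. *Nkd2* had log2 signals of -3.14 and -0.85 in Met-low and -3.32 and -2.16 in Met-high cells. The Met-low replicates alone differed by more than any pair of population means in the set, and the ratio of -0.75 went from -1.89 without Met-low replicate 1 (adjusted p = 0.0473) to 0.40 without Met-low replicate 2.

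All 7 genes grouped here with the destruction complex, its regulator *Tnks* included, were tested. Of them, 6 were measured on every array, and 1 was called. *Axin2*, a scaffold of the complex and a widely used target gene of β-catenin, had log2 signals of -4.49 and -4.30 in Met-low cells and -3.49 and -3.44 in Met-high cells. It was well above background on both Met-high arrays and on 1 Met-low array. The log2 ratio was 0.93 ± 0.16 (SE), a 1.91-fold difference, with an adjusted p of 0.0398. Leaving aside the block by replicate number, this call was kept in only 2 of 11 alternatives, namely quantile normalization and the processed values of the authors. The adjusted p rose to between 0.0644 and 0.138 when any 1 array was left out, to 0.0936 with a mean-variance trend and to 0.0551 with the percentile over detected probes. With normexp background correction the ratio was 0.40, and with the mean of both probes it was 0.60, where the second probe was well above background on no array.

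*Axin1*, the constitutive scaffold, had log2 signals of -0.05 and -0.15 in Met-low and 0.55 and 0.36 in Met-high cells. The populations did not overlap, the ratio was 0.55 ± 0.17 (SE) and the adjusted p 0.120. *Apc*, the tumour suppressor that holds β-catenin in the complex, ran the other way, with -3.77 and -2.73 in Met-low and -4.31 and -4.76 in Met-high cells. Its ratio was -1.28 ± 0.38 (SE), a 2.44-fold difference, and the adjusted p was 0.119. It was called in 2 of 12 alternatives, with the mean of its probes (-1.51, adjusted p = 0.0479) and without Met-low replicate 1 (-1.81, adjusted p = 0.0112). A second probe of *Apc* was well above background on 1 Met-low array only. Its mean Met-low signal was 1.26-fold over the lower limits of the Met-high arrays. That mean includes a Met-low signal not well above background, so 1.26-fold is not a minimum. The call with the mean of the probes rests in part on this dim probe. With normexp the ratio of *Apc* was -0.64.

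The kinases of this group, its ubiquitin ligase subunit and *Tnks* had lower means in Met-high cells without passing the test. *Gsk3b*, the kinase that phosphorylates β-catenin, had 3.20 and 2.58 in Met-low and 2.69 and 1.90 in Met-high cells, a ratio of -0.59 with an adjusted p of 0.327, and its other probes gave -0.77 and -0.91. *Csnk1a1*, the priming kinase, had a ratio of -0.37 with no overlap. *Tnks*, which marks Axin for degradation, had -0.42 and -1.19 in Met-low and -0.56 and -1.96 in Met-high cells, so that replicates differed more than populations. *Btrc*, the ubiquitin ligase subunit that recognises β-catenin, had a ratio of -0.11 whose sign turned under quantile normalization (0.04) and between its probes.

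**Figure D3:**
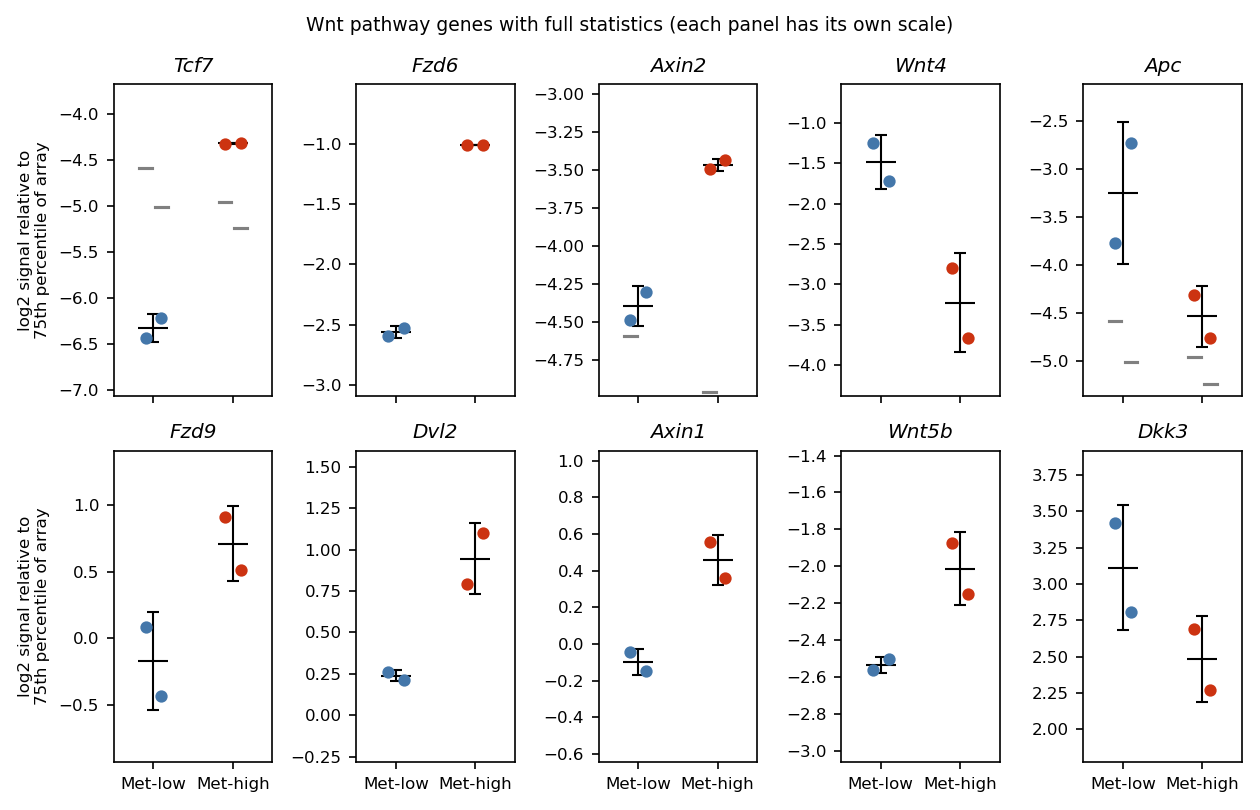
Log2 signal relative to the 75th percentile of the array (vertical axes, a scale for each gene) of 10 Wnt pathway genes in Met-low (blue) and Met-high (red) cells. Points are arrays, black lines the mean ± SD (n = 2), and short grey lines, where in range, the dimmest signal well above background on that array. The Met-low points of *Tcf7*, at -6.43 and -6.21, lie below those lines.

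β-catenin itself was measured well on every array. *Ctnnb1* had log2 signals of 4.30 and 4.13 in Met-low and 4.59 and 4.46 in Met-high cells. The ratio was 0.31 ± 0.16 (SE) with an adjusted p of 0.302. The RNA level does not measure the protein, which is controlled mainly by degradation. The co-activators that join β-catenin on DNA were *Pygo2*, with a ratio of 0.25 and overlapping values, and *Bcl9*, with -4.38 and -4.35 in Met-low and -3.66 and -5.31 in Met-high cells. The Met-high values of *Bcl9* lay on both sides of the Met-low values, and the sign of its ratio (-0.12) turned with normexp (0.07) and quantile normalization (0.08).

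*Tcf7*, which encodes the transcription factor TCF1, was measured in Met-high cells only. Its log2 signal was -6.43 and -6.21 in Met-low cells and -4.33 and -4.32 in Met-high cells. It was above the background limit on both Met-high arrays and on neither Met-low array. The log2 ratio of the mean signals was 2.00 ± 0.17 (SE) with an adjusted p of 0.00826 by limma. Its Met-low side is signal that was not well above background, so the size of the ratio is not exact. Against the dimmest signal still well above background on each Met-low array, in place of its own, the Met-high mean was 1.39-fold higher. Some probes not marked well above background lie above that dimmest signal, so 1.39-fold is not a strict minimum. The call was made in 9 of 11 alternatives. It was lost with normexp, where the ratio was 0.43 with an adjusted p of 0.162, and when dim probes were kept in the test, with an adjusted p of 0.0747. A second probe of *Tcf7* was well above background on no array, so the difference rests on 1 probe near the lower limit of the array.

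The other TCF genes were measured on every array and were not called. *Tcf7l1*, which acts largely as a repressor, had -0.50 and -1.30 in Met-low and -1.18 and -1.44 in Met-high cells, a ratio of -0.41 with an adjusted p of 0.428. *Tcf7l2* had -2.67 and -2.18 in Met-low and -2.27 and -2.01 in Met-high cells, a ratio of 0.28 with an adjusted p of 0.473. Its other probes gave -0.52 and -0.38, so its sign depended on the probe.

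**Figure D4:**
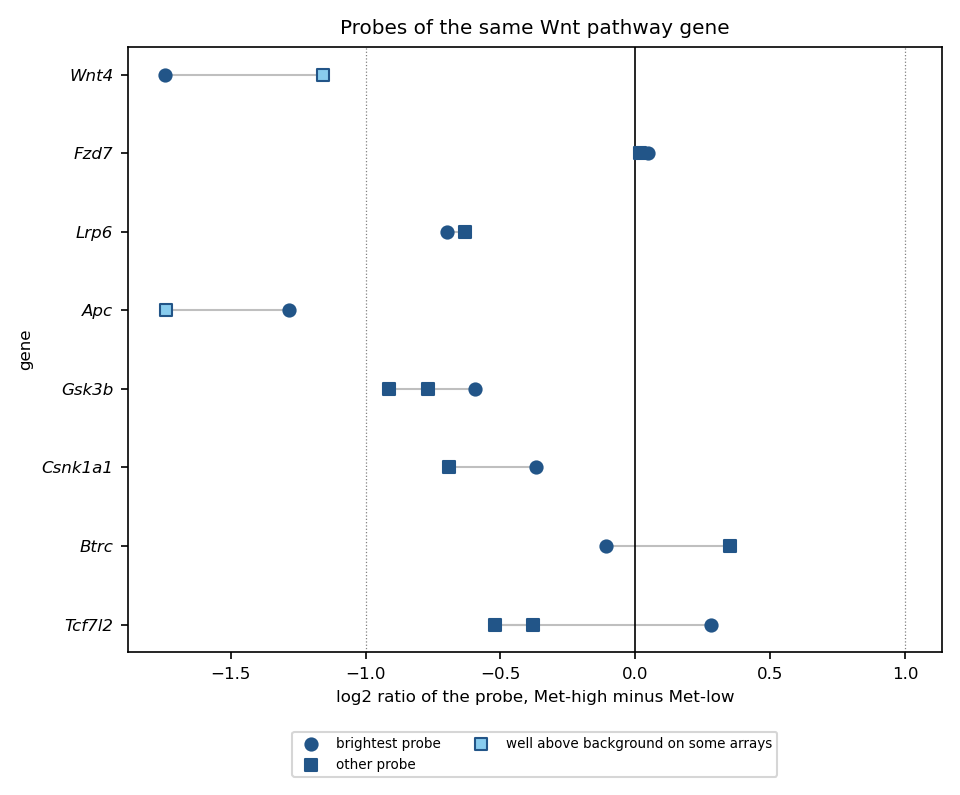
Log2 ratio (Met-high minus Met-low) of the probes of Wnt pathway genes with more than 1 probe well above background on at least 1 array. Circles are the brightest probe of a gene, squares its other probes, and pale symbols mark probes measured on neither Met-high array, whose ratios are not exact. The probes of *Gsk3b*, *Lrp6* and *Wnt4* lie on the same side of 0, while those of *Tcf7l2* and *Btrc* lie on both sides.

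In all, 14 of the 33 genes had overlapping populations, and in 7 of these, *Lrp6*, *Znrf3*, *Gsk3b*, *Btrc*, *Tnks*, *Bcl9* and *Tcf7l1*, the lowest value was on Met-high replicate 2. The lowest array was not counted over all genes, so this may not be particular to the Wnt genes. Gene length on the genome moved with the ratio over all genes, with median ratios of 0.18, 0.14, 0.10 and -0.04 in 4 groups of equal size from the shortest to the longest genes. Of the 33 Wnt genes, 6, 4, 8 and 15 fell into these groups, with median ratios of 0.23, 0.36, -0.03 and -0.11. *Apc*, *Lrp6*, *Gsk3b* and *Tnks* were in the longest group, as were *Axin1* and *Wnt5b*, whose ratios were positive. The part of gene length in the differences was not tested.

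A further 103 genes of the pathway were listed by role, of which 102 had a probe and 63 were tested. By limma, 0 of the 63 were called higher in Met-high and 1 higher in Met-low cells, against 1.93% and 3.8% of all genes. At an unadjusted p under 0.05 there were 11 and 6 of the 63, and 1713 and 1421 of all 11957 genes. Their median ratio was 0.12. The called gene was *Ccn4*, a secreted matricellular protein first found as a Wnt1-induced gene. Its log2 signals were 0.86 and 0.84 in Met-low and -0.39 and -0.52 in Met-high cells. The ratio was -1.30 ± 0.16 (SE) with an adjusted p of 0.0173, and the call was made in 11 of 12 alternatives. *Axin2*, also known as a target of β-catenin, had a ratio of 0.93 that was called in only 2 of 11 alternatives and was tested only through its Met-high signal.

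The 20 known targets, other than *Axin2*, included 13 that were tested, 6 with a positive and 7 with a negative ratio. *Jun* had a ratio of -0.91 with an adjusted p of 0.0766. *Myc* had a ratio of 0.05, *Ccnd1*, the gene of cyclin D1, of -0.32, and the melanocyte genes *Mitf* and *Dct* of -0.14 and -0.06, each with an adjusted p over that of *Jun*. The largest positive ratios were 0.69 for *Pou3f2*, with overlapping values, 0.67 for *Ephb3* and 0.41 for *Birc5*, and none of them was called. *Lef1*, the remaining TCF/LEF family gene, did not reach the background limit on any array. Of the other ligands 2 of 10 were tested, *Wnt1* with a ratio of 0.33 and *Wnt9a* with -0.58. Of the other receptors and R-spondins 1 of 10 was tested, of the other inhibitors 3 of 12, of the other cytoplasmic genes 18 of 20, of the other nuclear genes 15 of 16 and of the planar cell polarity genes, the branch in which *Fzd6* is best known, 11 of 14. None of these was called. The planar cell polarity genes *Celsr2*, *Fuz* and *Vangl2* had ratios of 0.76, 0.49 and 0.42, with adjusted p of 0.109, 0.175 and 0.178. Of the 11 tested, 7 had a positive and 4 a negative ratio, down to -0.27 for *Daam1*. Over all 11957 genes, 7118 had a positive and 4839 a negative ratio.

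**Figure D5:**
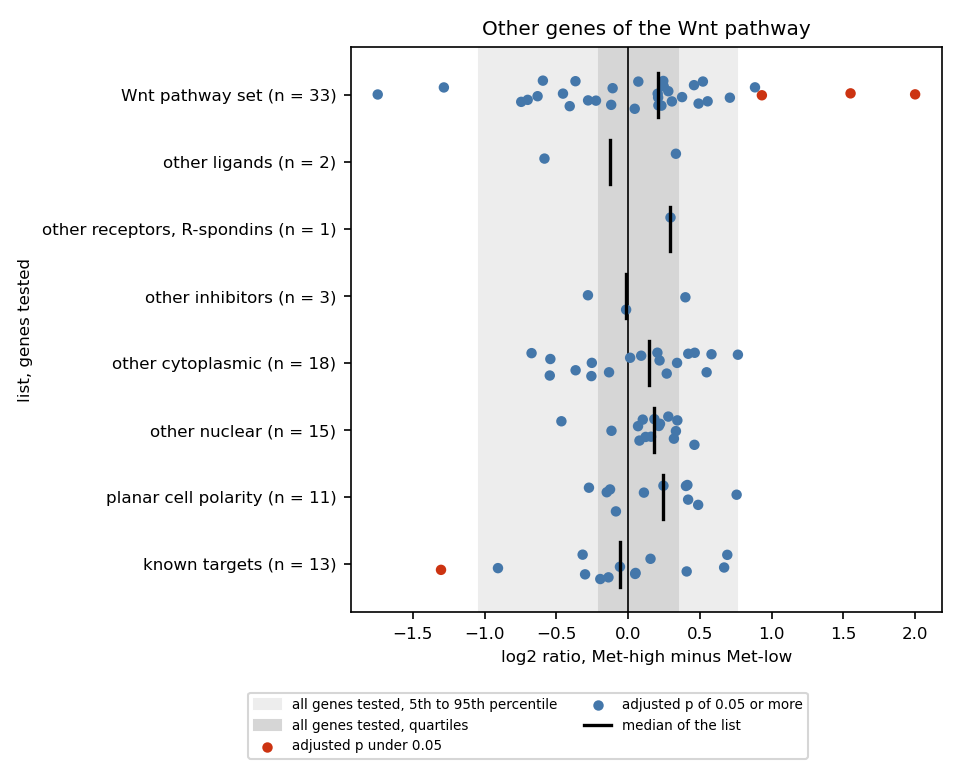
Log2 ratio (Met-high minus Met-low) of the tested genes of the Wnt pathway set and of 7 further lists of pathway genes, over the range of all genes tested (grey bands), with the median of each list (black line). *Ccn4* at -1.30, among the known targets, is the single gene called outside the set of 52.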

How the data were processed

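Total RNA of 4 samples, 2 of Met-low and 2 of Met-high B16-F10 cells grouped by their labels, was labelled with Cy3 and hybridised to Agilent mouse arrays. The authors deposited the Feature Extraction output of each array, with a background-corrected intensity and flags for each of 43020 spots. The labels name version 10.7.3.1 of that software and the file headers 11.0.1.1. The authors also deposited a processed table of log2 values, which set against the scanner values was scaled to the 75th percentile within arrays and centred by probe (slopes 0.994 to 1.0004, column medians -0.12 to 0.15, with 93.2% to 99.7% of 39429 probes within 0.01). Its direction was that of the signal, and it served as an alternative.

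The intensity was floored at 0.01 (0 spots changed), log2-transformed, and the 75th percentile of the array, between 858 and 1331 intensity units, was subtracted on that scale. Of all spots, 50.0% to 53.6% were well above background, 207 to 232 were left out as outliers and 0 were saturated. No flagged spot belonged to the probes used for the 52 genes. Spots of a probe were averaged, and a probe was well above background where no fewer of its spots were so than were not. Of 39429 probes, 27427 matched a RefSeq symbol (GRCm38.p6, used for names, gene length and promoters) and 12002 did not. A linear model with empirical Bayes moderation (limma 3.58.1, R 4.3.3) compared the populations over 11957 genes, and it was tested on simulated data. With 2 samples each, an exact permutation test allows no two-sided p below 0.333. The labels do not say how the replicates were prepared, and the number of arrays limits the precision. All arrays came from 1 slide and 1 scan, so position on the slide and population cannot be told apart, and a block by slide or scan was not run.

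The genes given with full statistics were those called, those past 2-fold, and those without overlap and with a ratio of at least 0.5 in size. Statistics of other genes, such as *Ctnnb1*, *Lrp6*, *Gsk3b*, *Nkd2* and *Jun*, were added after their values were seen. The members, the lists and the rules were chosen with earlier results of these data known. For a probe well above background on no array of 1 population, a fold was taken against the dimmest signal well above background on each of those arrays. The probe's own signal was used where it was higher, as for the second probe of *Wnt4*. Probes not marked well above background can lie above that dimmest signal, so these folds are not strict minimums. The alternatives were normexp background correction (offset 50), quantile normalization, the percentile over detected probes, no filter, a filter on all arrays, the mean of probes, the processed table, a mean-variance trend, the replicate number as a block and leaving out each array, 13 in all. Counts of alternatives given for a single gene leave out the block. Genes not measured on every array have no value under the filter on all arrays.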

Additional observations from a re-analysis of the deposited data

How the results depend on the processing

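The number of Wnt pathway genes called, 3 of 33, was between 2 and 4 in the alternatives apart from the following. Without a filter on dim probes limma called 0 of 52, while 8 had an unadjusted p under 0.05, and over all genes 0 were called towards Met-high and 7 towards Met-low cells, while 2659 had an unadjusted p under 0.05. With the replicate number as a block, 13 Wnt genes were called, *Dvl2* and *Dvl3* among them, and 1975 and 1580 of all genes. The deviations of equally numbered replicates correlated at 0.54 over 11947 genes, but there are only 2 pairs and no label ties the numbers, so the block was not used. With normexp 2 Wnt genes passed 2-fold in place of 4. With the percentile over detected probes 146 genes were called higher in Met-high cells, and with the mean-variance trend 393.

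Over 426 comparisons of a gene with an alternative, 374 kept direction and side of the threshold, 12 in 3 genes lost a call, 20 in 12 genes gained one and 20 in 9 genes changed sign. The changes of sign were those of *Wls* with quantile normalization (-0.064) and the percentile over detected probes (-0.074), *Fzd7* with normexp (-0.011) and that percentile (-0.099), *Bcl9* with normexp (0.066) and quantile normalization (0.078), *Btrc* with quantile normalization (0.039) and the mean of probes (0.121), and, with the mean of probes, *Fzd2* (-0.071) and *Tcf7l2* (-0.206). With each array left out in turn, ratios ran from -0.021 to 0.164 for *Wls*, -0.078 to 0.169 for *Fzd7*, -0.853 to 0.406 for *Znrf3*, -1.887 to 0.396 for *Nkd2*, -0.226 to 0.009 for *Btrc*, -1.156 to 0.249 for *Tnks* and -0.942 to 0.706 for *Bcl9*. The sign turned for *Btrc*, *Tnks*, *Bcl9*, *Znrf3* and *Fzd7* without Met-high replicate 2, for *Nkd2* and *Wls* without Met-low replicate 2, for *Wls* without Met-high replicate 1, and for *Fzd7* and *Znrf3* without Met-low replicate 1. The cause was not tested. The 19 Wnt genes that were not tested are limited by signal over background, so a difference in them was not detectable here.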
